A study of Mus musculus with 12 samples.

Results

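Cardiac mesoderm without a history of Foxa2 expression was compared with endoderm from mouse embryos at stage E7.25, using 6 of the 12 RNA-seq libraries of the study, 3 of each cell type. All libraries came from 1 mouse line, which carries a Cre recombinase under control of Foxa2 (Foxa2Cre) together with a Rosa26-YFP reporter that Cre switches on for good, so that a cell keeps yellow fluorescence after Foxa2 itself is off. The first group is the cardiac mesoderm that stayed dark (Foxa2Cre:YFP-), described in the labels as non-ventricular. The second group is endoderm, labelled as positive for EPCAM, an adhesion protein of epithelial cell surfaces, and carrying the same 2 alleles. The other 6 libraries, YFP-positive cardiac mesoderm and KDR-positive hematopoietic mesoderm, enter below only in a fit of all 12. The labels name YFP and EPCAM as the markers of these groups and do not describe how the cells were separated, and the RNA was amplified with a low-input kit. The labels also do not say whether replicates came from separate embryos or litters, so p-values measure the spread between these libraries, which may be technical. In bulk RNA, fewer cells of a type and less RNA per cell cannot be told apart.

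Both cell types arise at gastrulation, when epiblast cells pass through the primitive streak. Cells that become mesoderm lose epithelial junctions and migrate as mesenchyme under the control of SNAI and ZEB repressors, and the cardiac progenitors among them pass through a stage marked by the transcription factor MESP1. Definitive endoderm cells form a new epithelium that is driven by SOX17 and FOXA factors and mixes with the visceral endoderm, an older epithelium that feeds the embryo by uptake and secretion. Nodal favours endoderm at high signal, while BMP, Wnt and FGF ligands pattern the mesoderm. The comparison sets a migrating progenitor pool against a polarized epithelium.

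Gene counts per library ran from 5756722 to 7111602 in YFP-negative cardiac mesoderm and from 5976296 to 7888631 in endoderm, at which 3 counts equal 0.376 to 0.527 CPM (counts scaled to a common library total, with TMM scaling, the unit of every level below). Genes with at least 1 count numbered 15356 to 16078 in the mesoderm libraries and 18547 to 18618 in the endoderm libraries, and 15103 to 15903 against 18095 to 18511 after every library was thinned to 5756722 counts. The correlation of log2 CPM across genes was 0.8498 to 0.8598 between mesoderm replicates, 0.922 to 0.927 between endoderm replicates and 0.768 to 0.7899 between the types.

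Genes that the labels point to were read first, as a check of the labels and not as results. Foxa2 was at 0 counts in all 3 YFP-negative libraries and at 54.7, 61.5 and 65.6 CPM in endoderm replicates 1, 2 and 3. Epcam stood at 37.8, 26.7 and 44.98 CPM in the YFP-negative libraries and at 251, 213 and 229 CPM in endoderm, so the mesoderm libraries kept a low but clear level of it. Kdr, the VEGF receptor of early mesoderm, stood at 512, 560.4 and 464 CPM in the YFP-negative libraries and at 10.5, 5.01 and 17.3 CPM in endoderm. Pdgfra, another receptor of nascent mesoderm, stood at 214, 342 and 405 and 16.9, 8.400 and 18.2 CPM in the same order. The sum of 10 cardiac mesoderm markers was 1900.0, 2067 and 1980.4 CPM in the YFP-negative libraries and 274, 176 and 259 CPM in endoderm. Both labels were thus matched by their defining genes, with no overlap between the groups.

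Of 13472 genes with enough counts to test, 1360 differed at an edgeR adjusted p under 0.05, which is 10.1%. In YFP-negative mesoderm 468 genes were higher (3.47%) and 892 were lower (6.62%). The median log2 fold change of all genes tested was 0.00. The difference was lopsided at the extremes, since 598 of the lower genes but 117 of the higher genes lay 3 or more log2 units from 0, and 213 of the lower genes had no count in any YFP-negative library, against 5 higher genes with none in endoderm. The groups did not overlap for any called gene, as for 30.0% of all genes tested. Calls fell to 839 (6.23% of the genes tested) with the replicate number as a block, with 327 higher and 512 lower, and 798 of them were among the 1360. They fell to 185 (1.31%) when all 12 libraries shared 1 estimate of the spread, with 100 higher and 85 lower, and all of these were among the 1360. They fell to 500, 602 and 527 when endoderm replicate 1, 2 or 3 was left out, whereas leaving out a mesoderm library left 1247 to 1285. Across these 6 fits 434 genes passed every time, and the genes described in full below are mostly from among them. Where another fit moved the count of calls on a list by over 1.5 times, its count stands in parentheses after the main one, with the library left out, the replicate block or the other tool named. With all 12 libraries this held for 31 of the 32 lists below that had calls, so that count is not repeated for each.

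**Figure D1:**
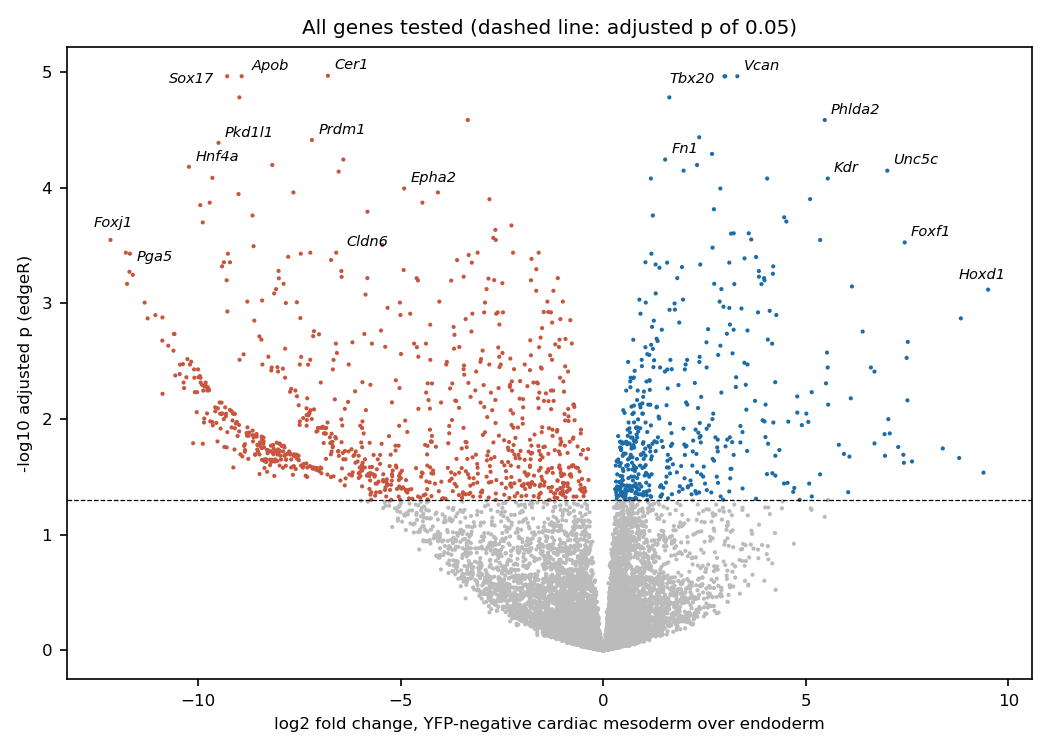
Each point is 1 of the genes tested, with the log2 fold change of YFP-negative cardiac mesoderm over endoderm on the horizontal axis and -log10 of the edgeR adjusted p on the vertical axis (blue higher, red lower, grey not called). The red points reach farther from 0 than the blue ones, to -12.16 for Foxj1 against 9.497 for Hoxd1, and both of these are fitted values for genes with at most 1 read in 1 group.

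Among genes of at least 10 CPM in the higher group, the largest fitted increases included Hoxd1, Wnt2, the antisense transcript Hoxb3os, Col1a1, Radil, Gfra3, Foxf1, Hlx, Unc5c, Tmem132c and Robo2. This set holds a Hox gene and a Hox antisense RNA, the mesenchymal factors Foxf1 and Hlx, and the guidance receptors Unc5c and Robo2. Unc5c, a receptor for netrins, stood at 216, 211 and 152 CPM in YFP-negative mesoderm and 2.66, 0.542 and 1.38 CPM in endoderm (log2 fold change 7.01 ± 0.46 (SE), adjusted p = 7.13e-05 by edgeR), groups that lay far apart. The largest decreases were Foxj1, Pga5, Slco4c1, Miat, Foxa2, Enpp3, Adgrg1, Hkdc1, Mt2, Slc16a13, Slc27a2 and Cfap65. All 12 of these had 0 counts in every YFP-negative library, and they range from a master regulator of cilia (Foxj1) to a pepsinogen (Pga5) and membrane transporters. Foxa2, the gene behind the YFP label, is a check of the label and not a result. Pga5 stood at 65.8, 53.9 and 75.2 CPM in endoderm, at least 138-fold above a floor of 3 counts per library (adjusted p = 3.65e-04 by edgeR). Exons of Hoxb3os overlap those of Hoxb3 and Hoxb2 on the other strand over 76.2% of their length, and those of Mt2 overlap Gm45774 over 73.5%. The strand setting of the counting is not given in the sources used here, so the counts of these 2 genes and of their partners cannot be told apart. Of the genes described below, Hand2, Sox17, Fzd5, Gas1, Dll1, Lef1, Rspo3, Pou5f1, Tekt2 and Ccn2 share 13.1% to 23.2% of their exon bases with such a partner, as does Miat here (24.3%). Among the genes named here, calls lost when 1 library was left out were those of Wnt2 (adjusted p = 0.0981 without endoderm replicate 1), Hlx (adjusted p = 0.0941 without endoderm replicate 1) and Tmem132c (adjusted p = 0.0836 without endoderm replicate 1). Those of Wnt2 (adjusted p = 0.0605 with the block) and Tmem132c (adjusted p = 0.0509 with the block) were lost with the replicate block too.

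Several cardiac regulators were higher in YFP-negative mesoderm, and none was lower. Of 23 cardiac progenitor transcription factors, 17 passed the filter on low counts, 8 (4 without endoderm replicate 1 and 5 without endoderm replicate 3) were called higher and 0 lower, with a median log2 fold change of 2.88 over the genes tested. Tbx20, a T-box factor needed for heart chamber growth, stood at 428, 424 and 365 CPM in YFP-negative mesoderm and 51.2, 53.5 and 46.3 CPM in endoderm (log2 fold change 3.01 ± 0.13 (SE), adjusted p = 1.09e-05 by edgeR). Hand1, a bHLH factor of the early heart and extraembryonic mesoderm, stood at 373, 318 and 352 CPM against 11.96, 3.79 and 38.7 CPM (log2 fold change 4.24 ± 0.65 (SE), adjusted p = 0.00481 by edgeR). The lowest mesoderm library stood far above the highest endoderm library for both, although the endoderm libraries themselves spread widely for Hand1, with replicate 3 the highest. Hand2, the paralogue of Hand1, was at 30.6, 28.5 and 28.6 CPM and 1.495, 0.271 and 0.125 CPM (log2 fold change 5.55 ± 0.94 (SE), adjusted p = 0.00751 by edgeR). Gata4, which cardiac mesoderm and endoderm are both known to use, was present in both at 257, 311 and 270.2 CPM and 149, 97.7 and 109 CPM, with a smaller difference (log2 fold change 1.24 ± 0.18 (SE), adjusted p = 0.00356 by edgeR). Gata6, its relative, was at 138, 129 and 111 CPM and 77.4, 93.9 and 87.4 CPM and did not pass (adjusted p = 0.110 by edgeR), although the groups did not overlap. Gata4 and Gata6 were thus present in both types, whereas Gata5 stood at a mean of 10.3 CPM in YFP-negative mesoderm and 0.135 CPM in endoderm. Mesp1, the earliest marker of the cardiac lineage, was at 40.8, 27.5 and 49.8 CPM in YFP-negative mesoderm, in contrast to 1.16, 4.34 and 0.2504 CPM in endoderm (log2 fold change 4.35 ± 0.91 (SE), adjusted p = 0.0186 by edgeR), a call lost without 1 library (adjusted p = 0.0981 without endoderm replicate 1). Mef2c, Isl1 and Gata5 were the other 3 called genes, and the groups did not overlap in any of the 8.

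Tbx5, which marks the later atrial and left ventricular field, did not pass the filter and had 0, 35 and 207 counts in the YFP-negative libraries. Nkx2-5, the homeobox gene of committed heart cells, was at 9.49, 0.581 and 1.06 CPM in YFP-negative mesoderm and 22.9, 0.948 and 26.5 CPM in endoderm, with overlapping groups and no call (adjusted p = 0.407 by edgeR). Of 23 sarcomere and early heart muscle genes 11 were tested and 1 (2 with DESeq2) was called, the atrial myosin light chain Myl7, at 52.7, 49.1 and 45.6 CPM against 3.49, 1.897 and 3.13 CPM (log2 fold change 4.11 ± 0.47 (SE), adjusted p = 0.00116 by edgeR). The share of this list called was 9.09%, near the 10.1% of all genes tested. The smooth muscle actin Acta2 had no count in any YFP-negative library. Tbx20, Hand1 and Myl7 also passed with all 12 libraries in the fit, and the other cardiac genes named did not. The calls of Mef2c (adjusted p = 0.106 without endoderm replicate 1), Isl1 (adjusted p = 0.174 without endoderm replicate 3) and Gata5 (adjusted p = 0.171 without endoderm replicate 1) were lost when 1 library was left out, and those of Isl1 and Gata5 also with the replicate block (adjusted p = 0.0589 with the block for Isl1 and adjusted p = 0.0544 with the block for Gata5).

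**Figure D2:**
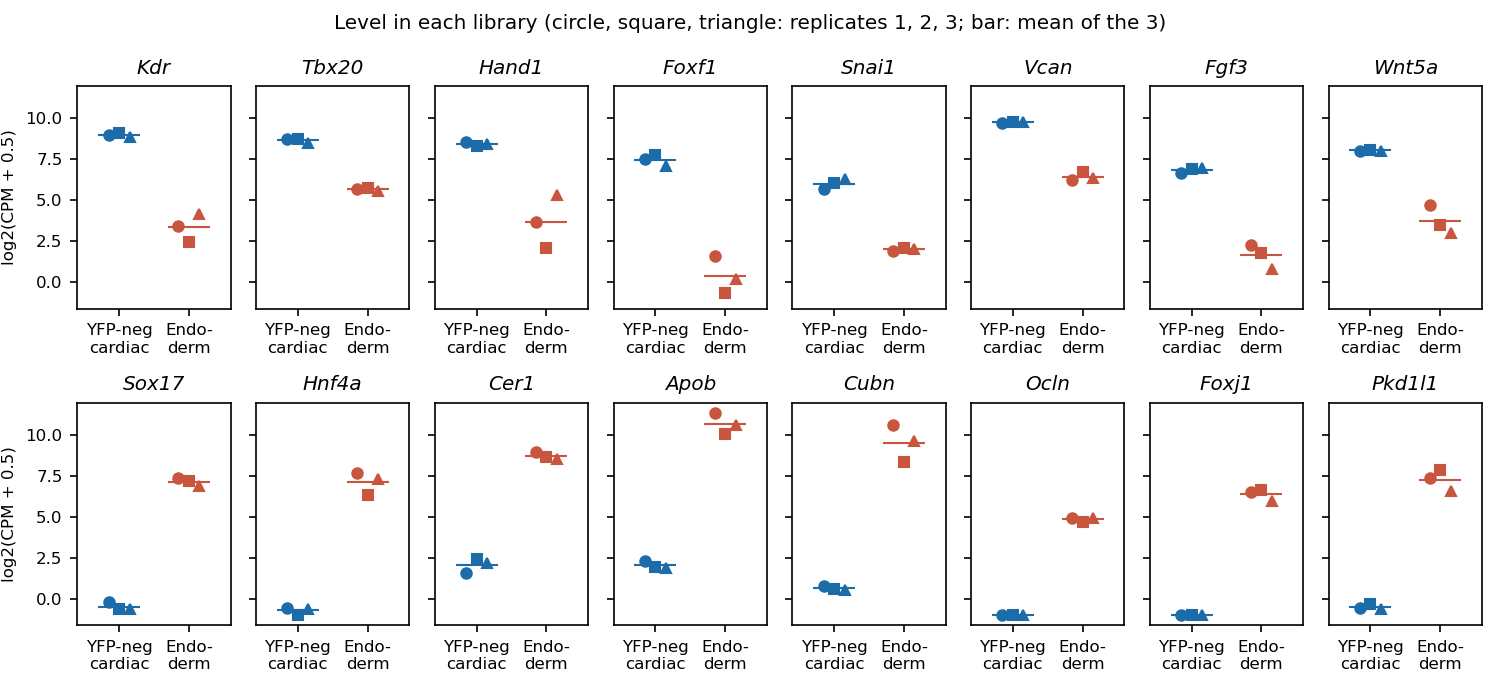
Levels of 16 genes in each library as log2(CPM + 0.5), with YFP-negative cardiac mesoderm in blue, endoderm in red, symbols for replicates 1 to 3 and a bar at the mean of the log2 values. The upper row shows genes of mesoderm and its signals, the lower row genes of endoderm, epithelium and cilia, and the groups do not overlap in any panel.

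More transcription factors of lateral plate and mesenchyme were called higher than lower. Of 37 listed, 25 were tested, 12 (7 without endoderm replicate 1 or 3) were higher and 4 (1 without endoderm replicate 1, 2 or 3 or with the block and 2 without mesoderm replicate 2 or 3, with a mean of at least 5 CPM or with limma voom) lower, with a median log2 fold change of 1.54. Foxf1, a Hedgehog-responsive forkhead factor of splanchnic and extraembryonic mesoderm, stood at 183, 219.7 and 135 CPM in YFP-negative mesoderm against 2.49, 0.135 and 0.626 CPM in endoderm (log2 fold change 7.44 ± 0.64 (SE), adjusted p = 2.98e-04 by edgeR). Tbx3, a T-box repressor, stood at 458, 443 and 502 CPM against 83.2, 47.7 and 80.5 CPM (log2 fold change 2.73 ± 0.21 (SE), adjusted p = 1.54e-04 by edgeR). Msx2, a homeobox target of BMP signalling, stood at 152, 96.9 and 126 CPM against 11.96, 10.2 and 7.76 CPM (log2 fold change 3.65 ± 0.31 (SE), adjusted p = 2.81e-04 by edgeR). Each of the 3 was well expressed in every mesoderm library, while in endoderm Foxf1 was nearly off and Tbx3 was still expressed. Pbx3, a cofactor of Hox proteins, differed less, at 394, 295 and 290.2 CPM against 109, 148 and 135 CPM (log2 fold change 1.32 ± 0.17 (SE), adjusted p = 0.00202 by edgeR). In the other direction Eya2, a transcriptional coactivator, had 1 read over the 3 YFP-negative libraries and 16.8, 18.6 and 15.1 CPM in endoderm, a ratio of 322 with an exact 95% counting interval of 57.4 to 12749 (adjusted p = 0.00367 by edgeR). Foxf1, Tbx3 and Pbx3 passed with all 12 libraries as well, whereas Msx2 and Eya2 did not.

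Few Hox genes had enough reads to test. Of 33 listed, 4 passed the filter, and 3 (1 without endoderm replicate 1) of these, Hoxb1 and Hoxd1 among them, were higher in YFP-negative mesoderm. Hox genes at the front end of the clusters, such as these, are switched on early, in the primitive streak. Hoxb1 stood at 77.6, 96.6 and 85.7 CPM in YFP-negative mesoderm and 3.65, 4.200 and 0 CPM in endoderm (log2 fold change 5.06 ± 0.92 (SE), adjusted p = 0.0106 by edgeR), with a call lost without 1 library (adjusted p = 0.0571 without endoderm replicate 1). Hoxd1 stood at 77.8, 42.6 and 23.02 CPM against 1 read over the 3 endoderm libraries, a ratio of 990.4 with an exact 95% counting interval of 177 to 39161 (adjusted p = 7.61e-04 by edgeR), and replicate 1 held over 3 times the level of replicate 3. The call of Hoxd1 stood with all 12 libraries, and that of Hoxb1 did not.

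Genes of the primitive streak did not part the types in a single direction. Of 22 tested, 7 (4 without endoderm replicate 1) were higher and 4 (2 without endoderm replicate 1 or 2, without mesoderm replicate 2 or with the block) lower in YFP-negative mesoderm. Eomes, a T-box gene that both lineages need, was at 402, 323 and 426 CPM in YFP-negative mesoderm and 287, 322 and 298 CPM in endoderm (adjusted p = 0.133 by edgeR). Mixl1, a homeobox gene of the streak, was at 274, 236 and 343 CPM and 123, 217 and 195 CPM (adjusted p = 0.103 by edgeR). Lhx1, a LIM homeobox gene of anterior streak derivatives, was at 249, 259.5 and 385 CPM and 416, 460.1 and 448 CPM (adjusted p = 0.0650 by edgeR). These 3 were high in all 6 libraries and not called, although their groups did not overlap. Brachyury (T), which marks the streak and the notochord, overlapped between the types and was not called. Evx1, a homeobox gene of the posterior streak, was higher at 86.4, 64.5 and 101 CPM against 24.4, 13.01 and 22.4 CPM (log2 fold change 2.07 ± 0.35 (SE), adjusted p = 0.00751 by edgeR), a call that the fit with all 12 libraries did not make (adjusted p = 0.731).

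Many endoderm regulators were nearly silent in YFP-negative mesoderm. Of 45 endoderm and organizer transcription factors, 32 were tested, and 19 (10 without endoderm replicate 1 or 3 and 11 without endoderm replicate 2) were lower. Foxa2, the gene behind the YFP label, is among the lower genes and is a check of the label, not a result. The main fit called 0 higher (2 with DESeq2 or without mesoderm replicate 2). The median log2 fold change was -3.96 (-3.70 with genes that had no counts in 1 group set at their bound). Sox17, the SOX factor that defines definitive endoderm, stood at 0.351, 0.145 and 0.151 CPM in YFP-negative mesoderm and 162, 146 and 117 CPM in endoderm (log2 fold change -9.28 ± 0.42 (SE), adjusted p = 1.09e-05 by edgeR). Hnf4a, a nuclear receptor that drives visceral endoderm and liver genes, had 2 reads over the 3 YFP-negative libraries and 205, 81.3 and 155 CPM in endoderm, a ratio of 1377 with an exact 95% counting interval of 381 to 11374 (adjusted p = 6.60e-05 by edgeR). Prdm1, a repressor used in endoderm and germ cells, stood at 0.351, 1.74 and 1.51 CPM against 184, 176 and 189 CPM (log2 fold change -7.19 ± 0.41 (SE), adjusted p = 3.88e-05 by edgeR). For these 3 genes no mesoderm library exceeded 2 CPM. Foxa1, the close relative of Foxa2, was at 0, 0 and 1.06 CPM in YFP-negative mesoderm and 65.6, 52.4 and 52.8 CPM in endoderm (log2 fold change -7.23 ± 1.01 (SE), adjusted p = 0.00308 by edgeR), and its few reads were all in replicate 3. Foxa3, the third of the family, was at 0 in all YFP-negative libraries and at 15.1, 4.61 and 24.3 CPM in endoderm (adjusted p = 0.0113 by edgeR), a call lost without 1 library (adjusted p = 0.0634 without endoderm replicate 3).

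Other members of the list were lower without being off. Otx2, a homeobox gene of anterior epiblast and endoderm, stood at 142, 87.2 and 129 CPM in YFP-negative mesoderm and 378, 362 and 385 CPM in endoderm (log2 fold change -1.65 ± 0.18 (SE), adjusted p = 7.79e-04 by edgeR). Hhex, a homeobox gene of anterior endoderm and of blood vessel progenitors, stood at 33.6, 12.4 and 5.301 CPM against 111, 139 and 149 CPM (log2 fold change -2.97 ± 0.57 (SE), adjusted p = 0.0137 by edgeR). Grhl2, which activates epithelial junction genes, stood at 2.11, 5.38 and 13.6 CPM against 80.7, 107 and 79.5 CPM (log2 fold change -3.65 ± 0.61 (SE), adjusted p = 0.00693 by edgeR). Goosecoid (Gsc) was at 1.58, 0 and 0 CPM against 10.96, 16.1 and 26.3 CPM and missed the threshold (adjusted p = 0.0624 by edgeR). With the replicate block 14 of the 19 calls stood, and with all 12 libraries 4 stood, among them Hnf4a, Prdm1 and the label gene Foxa2. Among these genes Hhex (adjusted p = 0.0634 without endoderm replicate 3) lost its call when 1 library was left out.

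Many genes of apolipoproteins and plasma proteins, which visceral endoderm is known to make, were lower in YFP-negative mesoderm. Of 49 apolipoproteins and plasma proteins, 22 were tested, 14 (6 without endoderm replicate 1 or 3 or with limma voom and 8 without endoderm replicate 2 or with the block) were lower in YFP-negative mesoderm and 0 higher, with a median log2 fold change of -4.58 (-4.11 at the bounds). Apob, which packages lipid into lipoproteins, stood at 4.39, 3.34 and 3.18 CPM in YFP-negative mesoderm and 2636, 1082 and 1562 CPM in endoderm (log2 fold change -8.92 ± 0.40 (SE), adjusted p = 1.09e-05 by edgeR). Apoa1, the main protein of high-density lipoprotein, stood at 0.703, 0.291 and 0.454 CPM against 205, 88.6 and 129 CPM (log2 fold change -8.17 ± 0.51 (SE), adjusted p = 6.37e-05 by edgeR). Ttr, a carrier of thyroid hormone and retinol-binding protein, stood at 0.527, 0.291 and 0.909 CPM against 175, 75.7 and 106 CPM (log2 fold change -7.64 ± 0.55 (SE), adjusted p = 1.10e-04 by edgeR). Afp, the fetal albumin, had 3 reads over the YFP-negative libraries and 191, 43.8 and 91.5 CPM in endoderm, a ratio of 659 with an exact 95% counting interval of 225 to 3199.6 (adjusted p = 6.32e-04 by edgeR). In all 4 genes endoderm replicate 1 was the highest library and replicate 2 the lowest. Apoe differed least among those called, at 61.7, 55.2 and 44.98 CPM against 181, 77.2 and 117 CPM (log2 fold change -1.21 ± 0.32 (SE), adjusted p = 0.0441 by edgeR), and lost its call without 1 library (adjusted p = 0.209 without endoderm replicate 1) and with the replicate block (adjusted p = 0.0651 with the block).

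Most of the endocytic uptake genes that were called were lower, and about as many genes were not called. Of 38 endocytic receptor and vesicle traffic genes, 31 were tested, 12 were lower and 3 higher. Cubn, the cubilin receptor for vitamin and lipoprotein complexes, stood at 1.23, 1.02 and 0.909 CPM in YFP-negative mesoderm and 1564, 323 and 783 CPM in endoderm (log2 fold change -9.71 ± 0.72 (SE), adjusted p = 1.35e-04 by edgeR). Amn, which carries cubilin to the surface, was at 0 in the YFP-negative libraries and at 35.9, 10.4 and 37.3 CPM in endoderm, at least 59.00-fold higher there (adjusted p = 0.00421 by edgeR). Dab2, an adaptor for these receptors, stood at 157, 158 and 118 CPM against 1144, 536 and 755 CPM (log2 fold change -2.49 ± 0.26 (SE), adjusted p = 6.70e-04 by edgeR). Lrp2 (megalin), the partner of cubilin, was lower too, at 19.7, 12.1 and 34.2 CPM against 242, 76.4 and 219.6 CPM (log2 fold change -3.03 ± 0.51 (SE), adjusted p = 0.00722 by edgeR). Cubilin, its carrier and its partner were thus all lower, and the endoderm libraries differed among themselves, with replicate 2 the lowest for all 4 genes. Ezr (ezrin), which ties microvilli to actin, stood at 61.3, 42.9 and 57.4 CPM against 300.2, 217 and 238 CPM (log2 fold change -2.23 ± 0.20 (SE), adjusted p = 3.65e-04 by edgeR). Myo6, a motor of endocytic vesicles, stood at 4.57, 15.7 and 1.97 CPM against 344, 134 and 239 CPM (log2 fold change -4.99 ± 0.68 (SE), adjusted p = 0.00274 by edgeR). Vldlr, the receptor for very low-density lipoprotein and reelin, ran the other way at 94.5, 119 and 165 CPM against 5.32, 11.4 and 9.52 CPM (log2 fold change 3.84 ± 0.38 (SE), adjusted p = 5.26e-04 by edgeR). So did Lrp1, a broad scavenger receptor, at 361, 459 and 379.9 CPM against 158, 161 and 171 CPM (log2 fold change 1.29 ± 0.12 (SE), adjusted p = 4.61e-04 by edgeR). Apart from Amn, Lrp2 and Lrp1, the endocytic genes named here passed with all 12 libraries as well.

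Most protease and transporter genes were not called. Of 40 lysosomal and secreted protease genes tested, 9 (5 without endoderm replicate 3) were lower and 2 (1 without endoderm replicate 1 or 3 or without mesoderm replicate 3) higher. Ctsh, a lysosomal cathepsin, stood at 0.351, 0 and 2.42 CPM in YFP-negative mesoderm and 198, 68.96 and 136 CPM in endoderm (log2 fold change -7.14 ± 0.89 (SE), adjusted p = 0.00174 by edgeR). Tmprss2, a membrane serine protease, had 3 reads over the YFP-negative libraries and 162, 107 and 148 CPM in endoderm, a ratio of 882 with an exact 95% counting interval of 301 to 4278 (adjusted p = 8.23e-05 by edgeR). Pcsk5, a convertase that cleaves growth factor precursors, was by contrast at 218, 183 and 199.6 CPM in YFP-negative mesoderm and 5.15, 3.12 and 9.01 CPM in endoderm (log2 fold change 5.11 ± 0.37 (SE), adjusted p = 1.26e-04 by edgeR). Of 24 epithelial solute carriers and ABC transporters tested, 9 were lower and 0 higher. Slc13a4, a sulphate carrier, stood at 6.499, 6.54 and 10.9 CPM against 309, 96.9 and 165 CPM (log2 fold change -4.57 ± 0.47 (SE), adjusted p = 6.34e-04 by edgeR). Slc40a1, the iron exporter ferroportin, stood at 0.176, 1.31 and 0.606 CPM against 41.7, 30.5 and 57.97 CPM (log2 fold change -5.89 ± 0.74 (SE), adjusted p = 0.00184 by edgeR). Ctsh, Tmprss2 and Pcsk5 passed with all 12 libraries, whereas Slc13a4 and Slc40a1 did not.

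Marker lists showed which cells the endoderm libraries could hold. The summed level of 12 visceral endoderm markers was 5192, 1772 and 2972 CPM in endoderm replicates 1, 2 and 3 and 24.2, 9.59 and 15.1 CPM in the YFP-negative libraries. The sum of the definitive endoderm markers varied less, at 1351, 1079 and 1101 CPM against 59.4, 20.5 and 11.96 CPM. Visceral markers were highest in endoderm replicate 1 and lowest in replicate 2. The visceral list holds Apob, Apoa1, Ttr, Afp, Cubn and Amn, and Apob and Cubn make up most of its sum. Its order is thus not independent of the plasma protein and uptake results. The part of visceral endoderm cells in those results was not tested. Without endoderm replicate 1, Apob (adjusted p = 1.43e-05) and Cubn (adjusted p = 2.42e-04) were still called. Node and notochord markers were present in every endoderm library, with a sum of 916, 1128 and 789 CPM against 348, 319 and 432 CPM. Rfx3, a factor for all cilia that is on the list, makes up most of this sum in both types. Noto and Calca, which mark the node, were at 0 in the YFP-negative libraries, and in endoderm Noto stood at 14.1, 26.6 and 11.1 CPM and Calca at 21.4, 48.5 and 24.4 CPM. Shh, the notochord ligand, had 70, 2 and 2 counts in endoderm replicates 1, 2 and 3. Epiblast markers summed to 1813, 1777 and 1801 CPM in endoderm and 688, 781 and 1037 CPM in YFP-negative mesoderm, where replicate 3 was the highest.

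The YFP-negative libraries were checked in the same way. Markers of endothelium and hemangioblast summed to 182, 188 and 125 CPM there and 19.8, 20.5 and 23.9 CPM in endoderm. Tal1, a blood and vessel regulator, stood at 64.3, 88.9 and 19.99 CPM against 0.831, 0.677 and 3.26 CPM (log2 fold change 5.14 ± 0.83 (SE), adjusted p = 0.00586 by edgeR). Etv2, which starts the endothelial program, stood at 61.8, 35.5 and 57.7 CPM against 1.16, 0.271 and 0.751 CPM (log2 fold change 6.14 ± 0.65 (SE), adjusted p = 7.15e-04 by edgeR). The mature endothelial markers Cdh5 and Emcn did not pass the filter, since Cdh5 had 15, 1 and 2 counts in YFP-negative replicates 1, 2 and 3 and Emcn had none in any of the 6 libraries. The embryonic globin genes Hbb-bh1, Hbb-y and Hba-x had no counts in either type. Markers of extraembryonic mesoderm and allantois summed to 1399, 1479 and 1208 CPM against 476, 280.0 and 429 CPM, and all 5 that were tested were higher. Of these, Bmp4 and Foxf1 are shared by cardiac and extraembryonic mesoderm. Igf2, also on the list, stood at a mean of 560 CPM against 323 CPM (adjusted p = 0.0481 by edgeR). Its call held in 1 of the 6 fits that left out a library. The part of extraembryonic mesoderm cells in the cardiac and BMP results was not tested. Tal1, Etv2, Foxf1 and Bmp4 passed with all 12 libraries.

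**Figure D3:**
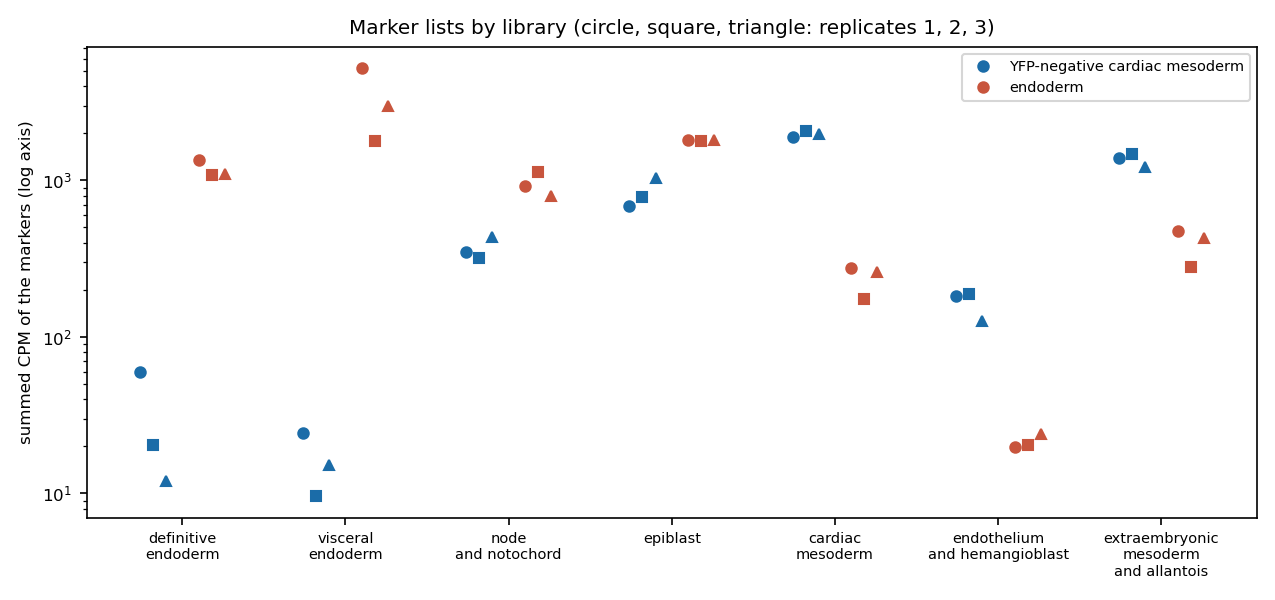
Summed CPM (log axis) of 7 marker lists in each library, with YFP-negative cardiac mesoderm in blue, endoderm in red and symbols for replicates 1 to 3. The visceral endoderm sum runs from 1772 to 5192 CPM over the endoderm libraries while the definitive endoderm sum runs from 1079 to 1351 CPM, and the YFP-negative libraries stay below 60 CPM on both.

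Calls among epithelial junction genes and among mesenchymal genes went mostly in opposite directions. Of 61 junction and keratin genes, 50 were tested, and 25 (9 without endoderm replicate 1, 10 without endoderm replicate 3 and 13 without endoderm replicate 2) were lower in YFP-negative mesoderm. The main fit called 0 higher (2 with DESeq2 and 1 with the block, thinning or limma voom or without mesoderm replicate 1). The median log2 fold change was -1.65. Epcam is among the lower genes and is the marker in the endoderm label. Cdh1 (E-cadherin), the core of adherens junctions, stood at 23.5, 2.03 and 58.2 CPM in YFP-negative mesoderm and 754, 637 and 586 CPM in endoderm (log2 fold change -4.56 ± 0.78 (SE), adjusted p = 0.00817 by edgeR), with replicate 3 the highest of the mesoderm libraries. Cldn6, a claudin of tight junctions, stood at 0.878, 0.727 and 4.695 CPM against 251, 189.8 and 178 CPM (log2 fold change -6.59 ± 0.59 (SE), adjusted p = 3.65e-04 by edgeR). Ocln (occludin) was at 0 in every YFP-negative library and at 30.4, 24.7 and 29.8 CPM in endoderm, at least 59.9-fold higher there (adjusted p = 0.00184 by edgeR). Plekha7, which ties cadherin junctions to microtubules, stood at 3.51, 6.54 and 4.998 CPM against 114, 107 and 113 CPM (log2 fold change -4.46 ± 0.33 (SE), adjusted p = 1.35e-04 by edgeR). Not every junction gene was low. Tjp1 (ZO-1), a scaffold of tight junctions, stood at 513, 521 and 494 CPM against 674, 665 and 639.8 CPM, a small difference (log2 fold change -0.37 ± 0.08 (SE), adjusted p = 0.0182 by edgeR) whose call was lost without 1 library (adjusted p = 0.0856 without endoderm replicate 1). Dsp (desmoplakin), a plaque protein of desmosomes, stood at 304, 619 and 457 CPM against 347, 368 and 369 CPM with overlapping groups (adjusted p = 0.416 by edgeR). Krt8, a keratin of simple epithelia, overlapped as well, at 43.6, 46.9 and 24.99 CPM against 83.2, 45.1 and 58.7 CPM (adjusted p = 0.317 by edgeR). With all 12 libraries 2 of these genes passed, Cldn6 and Ocln.

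On the mesenchymal side, 39 of 44 genes were tested, 14 were higher and 3 lower, with a median log2 fold change of 0.80. The 3 repressors of epithelial genes on the list that were called were all higher. Snai1, which represses E-cadherin at gastrulation, stood at 50.2, 65.4 and 79.4 CPM in YFP-negative mesoderm and 3.16, 3.79 and 3.63 CPM in endoderm (log2 fold change 4.19 ± 0.40 (SE), adjusted p = 4.79e-04 by edgeR). Zeb1, a zinc finger repressor with the same role, stood at 148, 128 and 111 CPM against 14.1, 19.5 and 11.1 CPM (log2 fold change 3.11 ± 0.30 (SE), adjusted p = 4.45e-04 by edgeR). Its paralogue Zeb2 stood at 665, 776 and 694 CPM against 136, 173 and 119.9 CPM (log2 fold change 2.32 ± 0.15 (SE), adjusted p = 6.37e-05 by edgeR). Snai1 stayed below 4 CPM in every endoderm library, while Zeb2 was expressed in both types. Cdh11, a mesenchymal cadherin, stood at 406, 455 and 423 CPM against 46.5, 58.7 and 56.1 CPM (log2 fold change 2.99 ± 0.14 (SE), adjusted p = 1.09e-05 by edgeR). Cdh2 (N-cadherin) was high in both types, at 372, 419.8 and 426 CPM against 224, 265 and 222 CPM (log2 fold change 0.78 ± 0.11 (SE), adjusted p = 0.00383 by edgeR). The protocadherins, adhesion proteins that sort cells, went both ways. Pcdh19 was higher at 153, 237 and 278 CPM against 5.48, 11.5 and 11.9 CPM (log2 fold change 4.52 ± 0.36 (SE), adjusted p = 1.96e-04 by edgeR). Pcdh1 was lower at 0.527, 6.39 and 3.48 CPM against 246, 189 and 169.8 CPM (log2 fold change -5.82 ± 0.59 (SE), adjusted p = 6.05e-04 by edgeR). Vim (vimentin) differed by a smaller amount, at 153, 104 and 109.5 CPM against 70.6, 59.1 and 37.4 CPM (log2 fold change 1.14 ± 0.28 (SE), adjusted p = 0.0374 by edgeR), and lost its call without 1 library (adjusted p = 0.114 without endoderm replicate 3). Zeb1, Zeb2, Cdh11 and Pcdh19 passed with all 12 libraries, whereas Snai1 (adjusted p = 0.278), Cdh2, Pcdh1 and Vim did not.

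Splicing regulators were called in both directions. Esrp1, which sets the epithelial splice forms of many genes, stood at 19.1, 1.74 and 11.1 CPM in YFP-negative mesoderm and 256, 269 and 278 CPM in endoderm (log2 fold change -4.67 ± 0.61 (SE), adjusted p = 0.00223 by edgeR). Rbm24, a splicing factor of heart muscle, stood at 142, 122 and 127 CPM against 17.4, 11.2 and 13.4 CPM (log2 fold change 3.22 ± 0.27 (SE), adjusted p = 2.48e-04 by edgeR). Rbfox2, which favours mesenchymal forms, stood at 468, 352 and 334 CPM against 206, 212 and 164 CPM (log2 fold change 0.99 ± 0.16 (SE), adjusted p = 0.00644 by edgeR). Rbm47, another epithelial factor, stood at 1.58, 1.02 and 42.6 CPM against 342, 279.9 and 265 CPM, with YFP-negative replicate 3 well above the other two (log2 fold change -4.28 ± 1.05 (SE), adjusted p = 0.0353 by edgeR), and lost its call without 1 library (adjusted p = 0.125 without endoderm replicate 1). Esrp2 was not called (adjusted p = 0.118 by edgeR). Over the list of 26, 4 (2 without endoderm replicate 1, 2 or 3, without mesoderm replicate 1 or with the block) were higher and 4 (2 without endoderm replicate 2 or 3) lower. The other calls were Srrm4 and Rbm20, higher, and Rbfox1 and Elavl2, lower. Those of Srrm4 (adjusted p = 0.125 with the block) and Rbm20 (adjusted p = 0.0838 with the block) were lost with the replicate block. Each of these held in 1 of the 6 fits that left out a library, and that of Rbfox1 in 4. Rbm24 alone of the genes called passed with all 12 libraries.

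The upstream sequences of the junction genes were read because SNAI and ZEB proteins are known to bind the E2-box, CAGGTG or CACCTG on the other strand. In windows of the 250 bases before each RefSeq gene start (GRCm38.p6, the mm10 build), the motif on either strand was in 17.2% of all windows and in 15.7% of those of the genes tested. It was in 11.2% of the windows of genes higher in YFP-negative mesoderm and in 23.9% of those of genes lower there. Of the 25 junction genes that were lower, 16 had a window in the table, and 10 of their 21 windows (47.6%), in 9 genes, held it. The share was 31.8% for the lower endoderm transcription factors, 30% for the lower cilium genes and 20% for the lower apolipoprotein and plasma protein genes. The 9 junction genes were Arhgef16, Cldn6, Cldn7, Crb3, Epcam, F11r, Krt18, Krt7 and Ocln. A match is a description of the letters and not evidence that a factor binds, and no test was run on the shares. The windows of 5 of these genes are shown, 5′ to 3′ on the strand of the gene, with each match in capitals:
Epcam (chr17:87635729-87635978, plus strand): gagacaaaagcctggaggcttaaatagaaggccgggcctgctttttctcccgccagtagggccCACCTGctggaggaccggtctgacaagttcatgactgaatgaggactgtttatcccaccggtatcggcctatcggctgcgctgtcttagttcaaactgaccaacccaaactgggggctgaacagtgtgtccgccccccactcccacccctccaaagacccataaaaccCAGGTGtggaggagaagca
Cldn7 (chr11:69965171-69965420, plus strand): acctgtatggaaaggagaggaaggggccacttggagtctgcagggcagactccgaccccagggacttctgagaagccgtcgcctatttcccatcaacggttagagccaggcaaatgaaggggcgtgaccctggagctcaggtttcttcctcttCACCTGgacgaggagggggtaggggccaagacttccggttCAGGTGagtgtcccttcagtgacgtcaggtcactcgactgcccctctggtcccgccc
Ocln (chr13:100552499-100552748, minus strand): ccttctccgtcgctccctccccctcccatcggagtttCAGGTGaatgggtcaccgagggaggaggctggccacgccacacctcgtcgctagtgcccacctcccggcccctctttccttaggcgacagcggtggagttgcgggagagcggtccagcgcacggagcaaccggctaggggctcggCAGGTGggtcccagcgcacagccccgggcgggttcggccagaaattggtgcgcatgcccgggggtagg
Crb3 (chr17:57061951-57062200, plus strand): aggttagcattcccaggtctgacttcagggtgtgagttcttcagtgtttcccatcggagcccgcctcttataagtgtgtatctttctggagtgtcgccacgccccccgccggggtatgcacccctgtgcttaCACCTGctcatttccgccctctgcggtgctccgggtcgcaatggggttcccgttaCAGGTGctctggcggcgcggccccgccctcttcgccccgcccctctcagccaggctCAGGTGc
Krt18 (chr15:102027966-102028215, plus strand): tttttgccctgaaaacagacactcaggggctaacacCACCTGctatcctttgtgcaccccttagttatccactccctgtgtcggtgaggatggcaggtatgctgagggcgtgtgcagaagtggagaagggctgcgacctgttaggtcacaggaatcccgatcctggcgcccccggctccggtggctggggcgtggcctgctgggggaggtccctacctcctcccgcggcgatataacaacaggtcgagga

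A gene can have several RefSeq starts, and the first window that held a match is the one shown. By the GENCODE gene positions, the windows of Crb3 and Cldn7 lie inside the gene, as does most of the Ocln window. Distances are to the RefSeq start of the window shown. Crb3, which sets the apical side of a cell, held 3 matches, the nearest of which began 7 bases before that start. Epcam, Cldn7 and Ocln held 2 each, and the nearest began 19, 57 and 68 bases before it. Krt18, the partner of Krt8, held 1 match 214 bases before it. Crb3 had 1 read over the YFP-negative libraries and 10.3, 5.69 and 9.77 CPM in endoderm (adjusted p = 0.0134 by edgeR). Cldn7 had 2 reads and 18.6, 11.2 and 21.5 CPM (adjusted p = 0.00826 by edgeR). Krt18 stood at 70.97, 64.5 and 52.4 CPM against 142, 110.3 and 96.8 CPM (log2 fold change -0.89 ± 0.23 (SE), adjusted p = 0.0422 by edgeR). The calls of Crb3 (adjusted p = 0.0737 without endoderm replicate 1), Cldn7 (adjusted p = 0.0557 without endoderm replicate 1) and Krt18 (adjusted p = 0.206 without endoderm replicate 1) were lost when 1 library was left out, that of Krt18 also with the replicate block (adjusted p = 0.0601 with the block).

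A further 6 motifs, chosen from the factors above, were searched in the same windows. TGTTTGC, 1 form of the sequence that FOXA and other forkhead factors bind, was in 4.3% of all windows and in 4 of the 15 windows of apolipoprotein and plasma protein genes that were lower in YFP-negative mesoderm (26.7%), those of Afp, Ambp, Apoa1 and Apob. The call of Ambp was lost with the replicate block (adjusted p = 0.0915 with the block) and without 1 library (adjusted p = 0.0951 without endoderm replicate 1). Over all lower genes its share was 3.76%, near that of the genes tested (3.18%). The windows of Afp and Apob are shown in the same way, with this match alone in capitals (GCAAACA is the same motif on the other strand):
Afp (chr5:90490464-90490713, plus strand): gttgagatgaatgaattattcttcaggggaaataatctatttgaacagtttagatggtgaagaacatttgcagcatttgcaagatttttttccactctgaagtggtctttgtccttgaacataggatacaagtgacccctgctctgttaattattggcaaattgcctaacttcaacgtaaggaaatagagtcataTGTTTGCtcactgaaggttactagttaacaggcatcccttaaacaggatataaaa
Apob (chr12:7977427-7977676, plus strand): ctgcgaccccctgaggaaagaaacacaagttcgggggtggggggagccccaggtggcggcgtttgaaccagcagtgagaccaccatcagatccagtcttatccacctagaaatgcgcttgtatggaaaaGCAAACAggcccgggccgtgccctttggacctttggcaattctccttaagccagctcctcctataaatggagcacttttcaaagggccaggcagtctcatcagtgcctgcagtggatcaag

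TGTTTAC, another forkhead form, was in 3.17% of all windows, 4.31% of those of lower genes and 2.33% of those of genes tested. AGATAA, which GATA factors bind, was in 9.99%, 6.75% and 5.61%. The RFX motif GTTGCCNNG was in 15% of the windows of lower cilium genes, those of Drc1 and Tekt2, and in 4.09% of all windows. The call of Tekt2 was lost with the replicate block (adjusted p = 0.0834 with the block) and without 1 library (adjusted p = 0.0807 without endoderm replicate 1). The HNF4 motif CAAAGTCCA and the T-box motif AGGTGTGA were in 0.384% and 1.12% of all windows and in none of those of the lower endoderm transcription factors. The T-box motif can overlap the E2-box. No match says only that these letters are not in the window.

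More genes of the interstitial matrix were called higher than lower. Of 59 collagen and interstitial matrix genes, 37 were tested, 10 (5 without endoderm replicate 1 or 3 and 6 without endoderm replicate 2) were higher in YFP-negative mesoderm and 2 (1 without endoderm replicate 1, 2 or 3, without mesoderm replicate 2 or 3, with no filter, with the block or with limma voom) lower, with a median log2 fold change of 1.03. Vcan (versican), a proteoglycan of the early heart jelly, stood at 842, 890.2 and 876 CPM in YFP-negative mesoderm and 76.4, 105 and 81.4 CPM in endoderm (log2 fold change 3.31 ± 0.14 (SE), adjusted p = 1.09e-05 by edgeR). Fn1 (fibronectin), the substrate on which mesoderm migrates, stood at 2130.2, 1924 and 2009.5 CPM against 760.4, 734 and 609 CPM (log2 fold change 1.53 ± 0.09 (SE), adjusted p = 5.72e-05 by edgeR). Has2, which makes hyaluronan, stood at 187, 153 and 248 CPM against 38.04, 21.8 and 53.6 CPM (log2 fold change 2.37 ± 0.34 (SE), adjusted p = 0.00321 by edgeR). These 3 were expressed in both types, with every mesoderm library above every endoderm library. Col2a1, a collagen of notochord and cartilage, ran the other way at 1.58, 0.145 and 0.303 CPM against 45.4, 47.4 and 53.8 CPM (log2 fold change -6.19 ± 0.81 (SE), adjusted p = 0.00217 by edgeR).

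Basement membrane genes were called in both directions. Of 28 tested, 2 (4 without mesoderm replicate 3) were higher and 6 (3 without endoderm replicate 3 and 10 with DESeq2) lower. Lama5, the laminin chain of epithelial basement membranes, stood at 15.8, 50.3 and 44.1 CPM in YFP-negative mesoderm and 228, 207 and 217 CPM in endoderm (log2 fold change -2.56 ± 0.37 (SE), adjusted p = 0.00356 by edgeR). Lama4, the chain of vessels and muscle, ran the other way at 55.9, 72.2 and 69.7 CPM against 4.49, 5.55 and 3.13 CPM (log2 fold change 3.905 ± 0.41 (SE), adjusted p = 6.82e-04 by edgeR). Lama1 (adjusted p = 0.438 by edgeR) and the type IV collagen chains Col4a1 (adjusted p = 0.259 by edgeR) and Col4a2 (adjusted p = 0.991 by edgeR), which every basement membrane holds, were not called. Vcan, Fn1, Has2, Col2a1 and Lama4 passed with all 12 libraries, and Lama5 did not (adjusted p = 0.106).

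Many genes of motile cilia were lower in YFP-negative mesoderm. Cilia of this kind are built by node cells, where their beating sets left and right. Of 76 listed, 57 were tested, 22 (12 without endoderm replicate 2, 13 without endoderm replicate 1 and 14 with the block or with limma voom) were lower and 1 (2 without mesoderm replicate 3, with no filter, with DESeq2 or with thinning) higher, with a median log2 fold change of -1.86. Foxj1, the master regulator of motile cilia, was at 0 in the YFP-negative libraries and at 92.2, 100.4 and 60.97 CPM in endoderm, at least 179-fold higher there (adjusted p = 2.83e-04 by edgeR). Pkd1l1, a channel subunit with which node cells sense flow, stood at 0.176, 0.291 and 0.151 CPM against 162, 234 and 93.9 CPM (log2 fold change -9.49 ± 0.55 (SE), adjusted p = 4.10e-05 by edgeR). The axonemal motor Dnah5 was at 0 in YFP-negative mesoderm and at 30.1, 36.4 and 11.02 CPM in endoderm, at least 54.7-fold higher there (adjusted p = 0.00409 by edgeR). Cfap65, Cfap206, Cfap54 and Cfap52, parts of the axoneme, were likewise at 0 in all YFP-negative libraries. In each of Foxj1, Pkd1l1 and Dnah5 endoderm replicate 2 was the highest and replicate 3 the lowest, as for Noto and the summed node markers. That sum includes Foxj1 and Rfx3, with Rfx3 most of it, so its order is not independent of these genes. Other markers on that list did not share the order, since Calca and Chrd were lowest in endoderm replicate 1 and Shh was highest there. The part of node cells in these results was not tested. Rfx3, a factor for all cilia, was present in both types at 283, 259 and 314 CPM and 638, 787 and 582 CPM (log2 fold change -1.23 ± 0.13 (SE), adjusted p = 7.79e-04 by edgeR). Gli3 was the 1 gene of the list that was higher, and it is a Hedgehog effector carried to cilia and not a part of the axoneme. Foxj1, Rfx3, Pkd1l1 and Cfap65 were the 4 that passed with all 12 libraries.

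Nodal itself and its inhibitor Cer1 were on the endoderm side. Of 19 Nodal pathway genes tested, 3 (0 without endoderm replicate 1 or 3 and 1 without mesoderm replicate 1 or 2) were higher and 4 (2 without endoderm replicate 1, 2 or 3) lower in YFP-negative mesoderm. The ligand Nodal stood at 0, 0.145 and 1.06 CPM in YFP-negative mesoderm and 53.00, 28.05 and 50.2 CPM in endoderm (log2 fold change -6.67 ± 0.98 (SE), adjusted p = 0.00373 by edgeR). Cer1, a secreted inhibitor of Nodal, BMP and Wnt, stood at 2.46, 4.94 and 3.94 CPM against 499, 405 and 376 CPM (log2 fold change -6.79 ± 0.25 (SE), adjusted p = 1.08e-05 by edgeR). The 2 Lefty inhibitors of Nodal went opposite ways. Lefty2, which nascent mesoderm makes, stood at 58.5, 79.3 and 141 CPM against 9.47, 25.7 and 17.3 CPM (log2 fold change 2.403 ± 0.47 (SE), adjusted p = 0.0140 by edgeR). Lefty1 had 1 read over the YFP-negative libraries and 3.49, 5.42 and 12.5 CPM in endoderm (adjusted p = 0.0175 by edgeR). The calls of Lefty1 (adjusted p = 0.0900 without endoderm replicate 3) and Lefty2 (adjusted p = 0.0707 without endoderm replicate 3) were lost without 1 library. The co-receptor Tdgf1 (Cripto) overlapped between the types, at 283, 237 and 321 CPM against 281, 249.8 and 255 CPM (adjusted p = 0.760 by edgeR). Cer1 alone of these genes passed with all 12 libraries.

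Wnt pathway genes were called in both directions. Of 53 tested, 10 were higher and 14 (9 without endoderm replicate 1 or 2) lower. Among ligands and agonists, Wnt5a, which acts mostly without beta-catenin, stood at 258, 273 and 259 CPM in YFP-negative mesoderm and 25.8, 10.6 and 7.51 CPM in endoderm (log2 fold change 4.19 ± 0.42 (SE), adjusted p = 5.55e-04 by edgeR). Rspo3, which amplifies Wnt signals, stood at 200.4, 182 and 175 CPM against 56.3, 76.8 and 39.4 CPM (log2 fold change 1.69 ± 0.25 (SE), adjusted p = 0.00371 by edgeR). Both were higher in mesoderm. Among the Frizzled receptors, Fzd5 stood at 6.85, 38.8 and 10.1 CPM in YFP-negative mesoderm and 463, 511 and 558 CPM in endoderm (log2 fold change -4.76 ± 0.56 (SE), adjusted p = 0.00123 by edgeR). Fzd8 stood at 0.176, 1.16 and 0.151 CPM against 71.8, 126 and 83.9 CPM (log2 fold change -7.46 ± 0.68 (SE), adjusted p = 3.72e-04 by edgeR). Fzd6 stood at 1.41, 0.291 and 0.909 CPM against 41.9, 55.1 and 55.5 CPM (log2 fold change -5.87 ± 0.64 (SE), adjusted p = 8.41e-04 by edgeR). These 3 receptors were all lower in mesoderm. Fzd7 was high in both types, at 312, 370.4 and 377 CPM against 269, 275 and 275 CPM and was not called (adjusted p = 0.0662 by edgeR). The secreted antagonist Sfrp1, which binds Wnt proteins, was lower at 40.6, 42.7 and 18.2 CPM against 617, 556 and 542 CPM (log2 fold change -4.08 ± 0.29 (SE), adjusted p = 1.10e-04 by edgeR). Dkk1, which blocks the LRP co-receptors, was lower at 46.02, 39.96 and 39.8 CPM against 220.5, 171 and 214 CPM (log2 fold change -2.27 ± 0.18 (SE), adjusted p = 2.12e-04 by edgeR).

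Among genes that beta-catenin signalling is known to switch on, Axin2 was higher at 169, 173 and 239 CPM against 97.02, 89.7 and 73.1 CPM (log2 fold change 1.16 ± 0.20 (SE), adjusted p = 0.00752 by edgeR). The nuclear effector Lef1 was higher too, at 499, 524 and 493 CPM against 108, 230.5 and 168 CPM (log2 fold change 1.58 ± 0.23 (SE), adjusted p = 0.00374 by edgeR). Sp5, another such target, was lower at 8.43, 9.16 and 12.4 CPM against 50.8, 51.1 and 33.1 CPM (log2 fold change -2.17 ± 0.42 (SE), adjusted p = 0.0146 by edgeR), so the targets did not share 1 direction. The call of Sp5 (adjusted p = 0.0949 without endoderm replicate 1) was lost without 1 library, and also with the replicate block (adjusted p = 0.0545 with the block). Wnt5a, Rspo3 and Fzd5 passed with all 12 libraries, and the other Wnt genes named here did not.

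**Figure D4:**
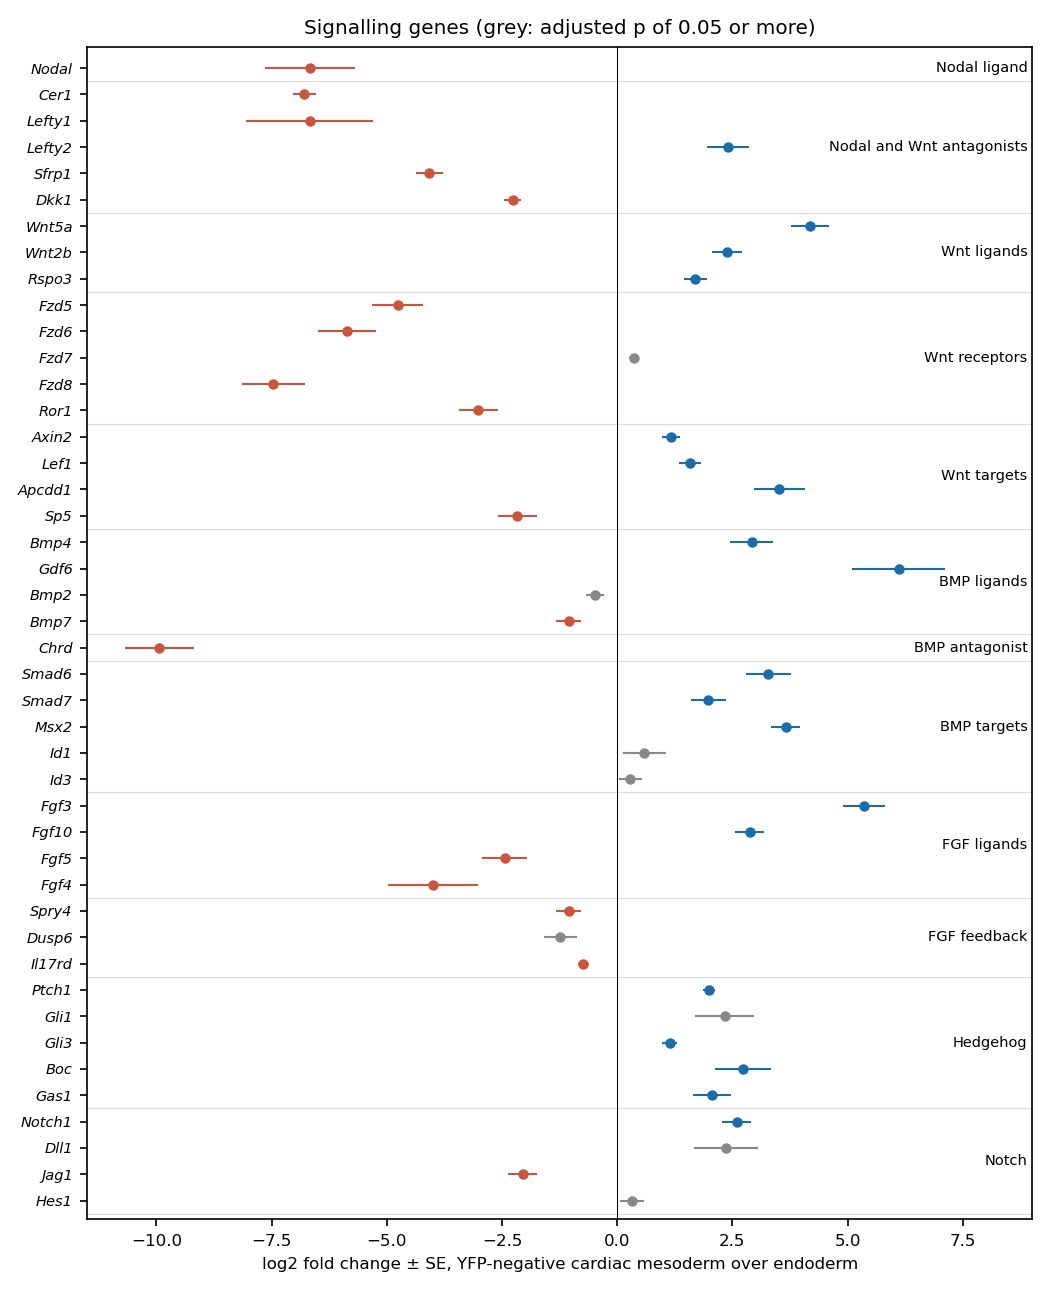
Log2 fold change of YFP-negative cardiac mesoderm over endoderm with its SE for signalling genes grouped by role (blue higher, red lower, grey not called). Ligands of the BMP and FGF families stand on both sides of 0. The Wnt ligands shown and the Hedgehog genes stand on the right, and Fzd5, Fzd6 and Fzd8 on the left. Chrd and Lefty1 had 1 read in 1 group, so their fitted values depend on the small count that edgeR adds.

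More BMP pathway genes were called higher than lower. Of 32 genes tested, 10 were higher and 2 (1 without endoderm replicate 1, 2 or 3, without mesoderm replicate 2, with the block or with limma voom) lower. The ligand Bmp4 stood at 201, 158 and 141 CPM in YFP-negative mesoderm and 9.303, 17.3 and 39.3 CPM in endoderm (log2 fold change 2.91 ± 0.47 (SE), adjusted p = 0.00591 by edgeR). Gdf6, of the same family, stood at 49.7, 34.2 and 18.6 CPM against 0.831, 0 and 0.626 CPM (log2 fold change 6.11 ± 1.005 (SE), adjusted p = 0.00662 by edgeR). Bmp2 was present in both types at 84.1, 109.9 and 124 CPM and 161, 136 and 147 CPM and was not called (adjusted p = 0.171 by edgeR). The ligand Bmp7 was lower, at 67.8, 40.3 and 65.6 CPM against 118, 146 and 97.5 CPM (log2 fold change -1.06 ± 0.27 (SE), adjusted p = 0.0396 by edgeR), a call lost with the replicate block (adjusted p = 0.0952 with the block) and without 1 library (adjusted p = 0.168 without endoderm replicate 2). Called ligands of the family thus went both ways. The antagonist Chrd (chordin), a product of node and notochord, had 1 read over the YFP-negative libraries and 51.3, 87.3 and 69.6 CPM in endoderm, a ratio of 1353 with an exact 95% counting interval of 242 to 53476 (adjusted p = 1.42e-04 by edgeR). Of the feedback genes that BMP induces, Smad6 stood at 33.7, 62.2 and 38.02 CPM against 5.81, 4.34 and 3.63 CPM (log2 fold change 3.28 ± 0.49 (SE), adjusted p = 0.00436 by edgeR). Smad7, its paralogue, stood at 62.4, 80.9 and 106 CPM against 17.1, 15.6 and 30.4 CPM (log2 fold change 1.98 ± 0.37 (SE), adjusted p = 0.0121 by edgeR). Id1 (adjusted p = 0.542 by edgeR) and Id3 (adjusted p = 0.590 by edgeR), further BMP targets, overlapped between the types. The call of Smad7 (adjusted p = 0.0713 without endoderm replicate 1) was lost without 1 library. Bmp4, Chrd and Smad6 passed with all 12 libraries.

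FGF ligands differed by member. Fgf3 stood at 99.6, 120.0 and 126 CPM in YFP-negative mesoderm and 4.32, 2.98 and 1.25 CPM in endoderm (log2 fold change 5.35 ± 0.46 (SE), adjusted p = 2.83e-04 by edgeR). Fgf10, a ligand of the second heart field, stood at 136, 187 and 172 CPM against 29.9, 13.3 and 24.5 CPM (log2 fold change 2.87 ± 0.32 (SE), adjusted p = 9.67e-04 by edgeR). Fgf5, an epiblast ligand, was lower at 18.3, 43.2 and 97.2 CPM against 310.3, 259 and 297 CPM (log2 fold change -2.45 ± 0.48 (SE), adjusted p = 0.0153 by edgeR). Fgf8, needed for cells to leave the streak, was low in both, at 0.878, 1.16 and 2.88 CPM and 2.82, 6.77 and 11.4 CPM (adjusted p = 0.249 by edgeR). Of the 30 genes tested 3 (5 with DESeq2) were higher and 7 (3 without endoderm replicate 1 or 3 and 4 with the block) lower. Spry4, a feedback inhibitor of FGF signalling, was lower at 59.2, 80.4 and 119 CPM against 184, 216 and 138 CPM (log2 fold change -1.05 ± 0.27 (SE), adjusted p = 0.0439 by edgeR). Il17rd, another feedback inhibitor, was lower at 201, 162 and 204 CPM against 309.5, 322 and 312 CPM (log2 fold change -0.73 ± 0.12 (SE), adjusted p = 0.00751 by edgeR). The calls of Fgf5 (adjusted p = 0.0721 without endoderm replicate 1) and Spry4 (adjusted p = 0.171 without endoderm replicate 2) were lost without 1 library, that of Spry4 also with the replicate block (adjusted p = 0.0838 with the block). Fgf3 and Fgf10 passed with all 12 libraries.

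Several Hedgehog genes that receive the signal were higher in mesoderm. Of 17 tested, 6 were higher and 0 (1 with DESeq2) lower. Ptch1, at once the receptor and a target of the pathway, stood at 531, 459 and 519.6 CPM in YFP-negative mesoderm and 115, 147 and 119.9 CPM in endoderm (log2 fold change 1.98 ± 0.13 (SE), adjusted p = 7.13e-05 by edgeR). Gli3, a transcription factor of the pathway, stood at 333, 292 and 268 CPM against 110.3, 144 and 151 CPM (log2 fold change 1.14 ± 0.16 (SE), adjusted p = 0.00279 by edgeR). Gli1, the most direct target, stood at 72.7, 26.9 and 43.6 CPM against 2.99, 14.9 and 10.4 CPM, did not overlap and missed the threshold (adjusted p = 0.0549 by edgeR). Ptch1, Gli3 and Gli1 were thus all at higher levels in mesoderm, Gli1 without a call. Gli2, of the same family as Gli1 and Gli3, stood at a mean of 50.6 CPM against 41.1 CPM and was not called (adjusted p = 0.688 by edgeR). The co-receptor Boc was higher at 25.5, 42.3 and 38.5 CPM against 2.16, 5.69 and 8.01 CPM (log2 fold change 2.73 ± 0.60 (SE), adjusted p = 0.0229 by edgeR). The co-receptor Gas1 was higher at 42.3, 68.2 and 63.8 CPM against 12.6, 19.9 and 9.39 CPM (log2 fold change 2.05 ± 0.42 (SE), adjusted p = 0.0171 by edgeR). The calls of Boc (adjusted p = 0.0884 without endoderm replicate 2) and Gas1 (adjusted p = 0.0890 without endoderm replicate 1) were lost without 1 library. The ligands Shh and Ihh had too few reads to test. Ptch1 and Foxf1 were the 2 genes of the list that passed with all 12 libraries.

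Notch pathway genes showed no common direction. Of 34 tested, 2 (1 without endoderm replicate 1 or 2, without mesoderm replicate 1 or 3 or with the block, 4 with limma voom and 6 with DESeq2) were higher and 6 (3 without endoderm replicate 1 or 2) lower. The receptor Notch1 stood at 94.9, 158 and 137 CPM in YFP-negative mesoderm and 28.9, 20.5 and 15.5 CPM in endoderm (log2 fold change 2.59 ± 0.32 (SE), adjusted p = 0.00167 by edgeR). The ligand Jag1 was lower at 28.98, 29.5 and 22.1 CPM against 99.8, 155 and 79.6 CPM (log2 fold change -2.05 ± 0.31 (SE), adjusted p = 0.00470 by edgeR). The ligand Dll1 stood at 82.03, 85.01 and 60.6 CPM against 21.4, 20.7 and 2.25 CPM and missed the threshold (adjusted p = 0.0657 by edgeR). The target Hes1 overlapped between the types (adjusted p = 0.556 by edgeR). Notch1 passed with all 12 libraries and Jag1 did not (adjusted p = 0.657).

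Genes of vascular and stem cell factor signalling were called in both directions. Of 26 tested, 8 (5 without endoderm replicate 2 or 3) were higher, Kdr and Pdgfra among them, and 5 (3 without endoderm replicate 1) lower. Nrp2, a co-receptor for VEGF-C and semaphorins, stood at 313, 339 and 347 CPM in YFP-negative mesoderm and 66.95, 33.5 and 53.8 CPM in endoderm (log2 fold change 2.698 ± 0.24 (SE), adjusted p = 3.30e-04 by edgeR). Its ligand Vegfc stood at 15.3, 35.9 and 22.1 CPM against 0.498, 0.542 and 0.501 CPM (log2 fold change 5.52 ± 0.75 (SE), adjusted p = 0.00266 by edgeR). Co-receptor and ligand were both higher. Flt1, a VEGF receptor that can act as a decoy, was lower at 124, 81.8 and 81.9 CPM against 257, 258 and 324 CPM (log2 fold change -1.55 ± 0.20 (SE), adjusted p = 0.00198 by edgeR). Kit, the stem cell factor receptor, was lower at 14.6, 31.2 and 30.9 CPM against 136, 154 and 164 CPM (log2 fold change -2.56 ± 0.31 (SE), adjusted p = 0.00152 by edgeR). Kdr, Pdgfra and Nrp2 passed with all 12 libraries, whereas Vegfc, Flt1 and Kit did not.

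Guidance genes were called in both directions. Of 49 tested, 6 (10 with DESeq2) were higher and 9 (5 without endoderm replicate 1 or 2) lower. Epha2, an ephrin receptor of epithelia, stood at 5.797, 5.81 and 2.73 CPM in YFP-negative mesoderm and 143, 153 and 136 CPM in endoderm (log2 fold change -4.91 ± 0.34 (SE), adjusted p = 1.02e-04 by edgeR). Sema3e, a secreted repellent, stood at 0.703, 0.291 and 0.303 CPM against 38.2, 59.2 and 41.8 CPM (log2 fold change -6.72 ± 0.63 (SE), adjusted p = 4.22e-04 by edgeR). Both were below 6 CPM in every mesoderm library. The Slit receptor Robo1 was higher at 446, 488 and 554 CPM against 214, 192 and 162 CPM (log2 fold change 1.39 ± 0.13 (SE), adjusted p = 4.93e-04 by edgeR). The semaphorin receptor Plxna4 was higher at 90.3, 195 and 137 CPM against 13.96, 21.1 and 18.8 CPM (log2 fold change 2.97 ± 0.34 (SE), adjusted p = 0.00107 by edgeR). Lpar1, a lysophosphatidic acid receptor, was lower at 2.81, 0.727 and 5.76 CPM against 150.2, 104 and 119 CPM (log2 fold change -5.32 ± 0.61 (SE), adjusted p = 0.00109 by edgeR). Robo1, Plxna4 and Unc5c passed with all 12 libraries, and Epha2, Sema3e and Lpar1 did not.

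In the Hippo pathway 3 (6 with DESeq2) of 29 tested genes were higher and 2 (0 without endoderm replicate 3 and 1 without endoderm replicate 1 or without mesoderm replicate 2 or 3) lower. Tead1, the DNA-binding partner of YAP, stood at 905, 959 and 704 CPM in YFP-negative mesoderm and 421, 410.1 and 409 CPM in endoderm (log2 fold change 1.05 ± 0.12 (SE), adjusted p = 9.85e-04 by edgeR). Frmd6, an upstream regulator, stood at 171, 161 and 106 CPM against 14.8, 9.62 and 12.02 CPM (log2 fold change 3.59 ± 0.30 (SE), adjusted p = 2.48e-04 by edgeR). The YAP targets Ccn1 (adjusted p = 0.961 by edgeR) and Ccn2 (adjusted p = 0.992 by edgeR) overlapped between the types. Tead1 and Frmd6 passed with all 12 libraries.

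Few genes of energy metabolism were called. None of the 56 nuclear-encoded respiratory chain genes was called, with a median log2 fold change of 0.11. Of 32 glycolysis and glucose transport genes 2 (4 without mesoderm replicate 2 or with DESeq2) were lower and 0 (3 with DESeq2 and 1 without endoderm replicate 3) higher, shares near those of all genes tested. The glucose carrier Slc2a3 was lower at 276, 287 and 281 CPM in YFP-negative mesoderm and 1062, 735 and 752 CPM in endoderm (log2 fold change -1.59 ± 0.14 (SE), adjusted p = 3.65e-04 by edgeR). The lactate carrier Slc16a1 was lower at 285, 248 and 257 CPM against 792, 565 and 538 CPM (log2 fold change -1.26 ± 0.15 (SE), adjusted p = 0.00147 by edgeR). The general carrier Slc2a1 stood at 397, 330.2 and 312 CPM and 437, 329 and 313 CPM with overlapping groups (adjusted p = 0.904 by edgeR). Of 50 DNA replication and S phase genes 4 (2 without endoderm replicate 1, 2 or 3) were higher, led by Ccnd2 (cyclin D2) at 611, 574 and 729 CPM against 90.2, 121 and 86.4 CPM (log2 fold change 2.69 ± 0.16 (SE), adjusted p = 5.11e-05 by edgeR). The share of the S phase list called in either direction was 8%, near the 10.1% of all genes tested. Ccnd2 and Slc2a3 passed with all 12 libraries and Slc16a1 did not.

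Among genes of pluripotency and epiblast, more were called higher in endoderm than in mesoderm. Of 30 tested, 11 (5 without endoderm replicate 2 or 3 and 7 without endoderm replicate 1) were lower in YFP-negative mesoderm and 2 (1 without endoderm replicate 1, 2 or 3, without mesoderm replicate 2 or 3, with no filter or with the block), Myc and Trim71, were higher. Dnmt3b, the de novo DNA methyltransferase, stood at 303, 448 and 458 CPM in YFP-negative mesoderm and 847, 780.4 and 765 CPM in endoderm (log2 fold change -0.98 ± 0.15 (SE), adjusted p = 0.00474 by edgeR). Tet3, a DNA dioxygenase, stood at 81.2, 72.95 and 70.1 CPM against 216, 297 and 251 CPM (log2 fold change -1.77 ± 0.16 (SE), adjusted p = 4.13e-04 by edgeR). Utf1, an epiblast chromatin factor, stood at 0.351, 0.145 and 8.48 CPM against 113, 121 and 122 CPM, with YFP-negative replicate 3 above the other two (log2 fold change -5.29 ± 1.03 (SE), adjusted p = 0.0141 by edgeR), and lost its call without 1 library (adjusted p = 0.0677 without endoderm replicate 1). Pou5f1 stood at 4.22, 5.09 and 10.8 CPM against 23.9, 36.7 and 24.7 CPM and missed the threshold (adjusted p = 0.0561 by edgeR). Trim71, an RNA-binding protein, stood at 957, 994 and 1057 CPM against 859, 766 and 788 CPM (log2 fold change 0.32 ± 0.08 (SE), adjusted p = 0.0347 by edgeR), and its call was lost with the replicate block (adjusted p = 0.0588 with the block) and in all but 1 of the 6 fits that left out a library (adjusted p = 0.145 without endoderm replicate 2 at the highest). Myc stood at 300.2, 248 and 303 CPM against 109.6, 159 and 138 CPM (log2 fold change 1.07 ± 0.16 (SE), adjusted p = 0.00474 by edgeR). Dnmt3b and Myc passed with all 12 libraries, and Tet3 did not (adjusted p = 0.269).

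Imprinted genes were called in both directions, 5 (1 without endoderm replicate 3, 2 without endoderm replicate 2 and 3 without mesoderm replicate 1 or 3) higher and 4 (1 without endoderm replicate 1 or 3 and 2 without endoderm replicate 2) lower of 26 tested. Phlda2, a maternally expressed gene that limits placental growth, stood at 220.3, 152 and 171 CPM in YFP-negative mesoderm and 3.65, 3.39 and 5.13 CPM in endoderm (log2 fold change 5.47 ± 0.29 (SE), adjusted p = 2.60e-05 by edgeR) and passed with all 12 libraries. Meg3, a maternally expressed long RNA, was lower at 581, 474 and 539 CPM against 1184, 941 and 1056 CPM (log2 fold change -0.997 ± 0.11 (SE), adjusted p = 9.66e-04 by edgeR), a call not made with all 12 (adjusted p = 0.403). H19 overlapped between the types at 383, 344 and 388 CPM and 436, 272 and 324 CPM (adjusted p = 0.777 by edgeR).

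**Figure D5:**
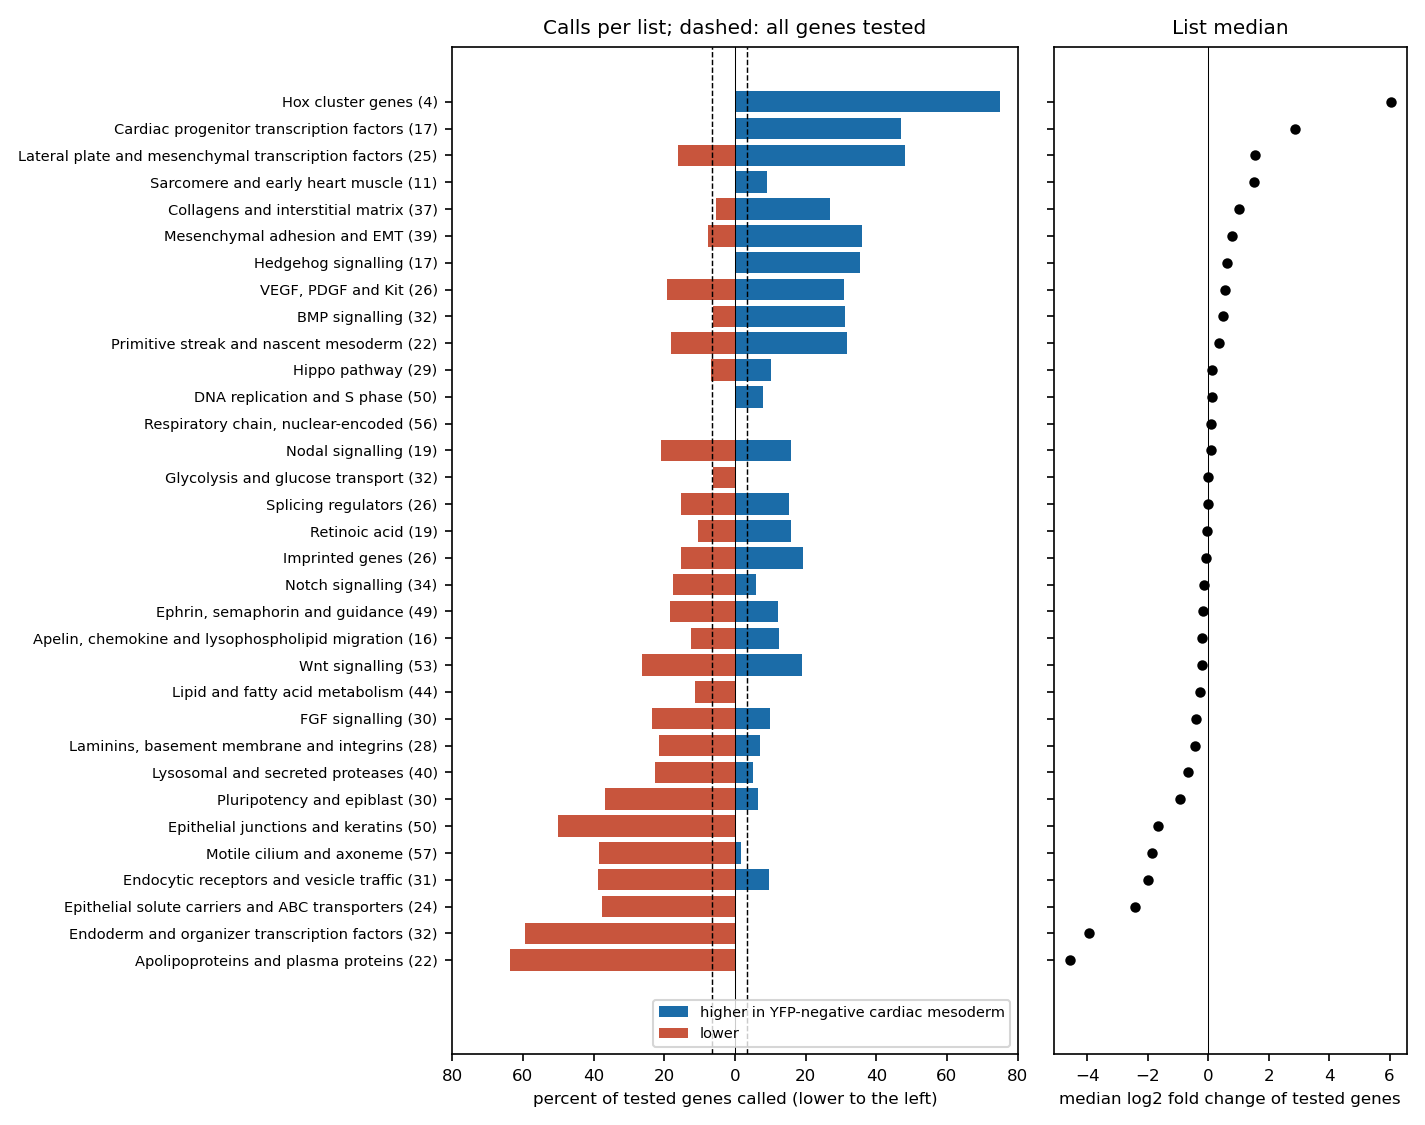
For each of 33 gene lists, with its number of genes tested in brackets, the left panel gives the percent of tested genes called higher (blue, to the right) or lower (red, to the left) in YFP-negative cardiac mesoderm, with dashed lines at the shares of all genes tested, and the right panel gives the median log2 fold change. Hox, cardiac and lateral plate lists stand at the top, apolipoprotein and endoderm factor lists at the bottom, and the respiratory chain list has no call.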

How the data were processed

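The deposited files hold raw read counts per gene, made by the authors with tools that the submitters' processing notes name as STAR 2.5.0a, Picard, HTSeq 0.6.0 and DESeq2 on build mm10, without their roles. The annotation and the strand setting are not given in the sources used here. Tally rows that name no gene were removed, which left 19.8% to 21.5% of the tallied reads of the 6 libraries, those assigned to genes. Reads from amplified RNA without molecular identifiers are not independent molecules, so intervals and floors cover counting error only.

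Differences were tested with edgeR 4.0.16 in R 4.3.3 (quasi-likelihood test, two-sided, TMM scaling, filterByExpr by group, Benjamini-Hochberg adjustment over all 13472 genes, adjusted p under 0.05). The fit held the 6 libraries only, since earlier results of these data showed that the spread differs between the cell types of the study. This fit still shares its estimate of the spread between groups that differ in it. Their biological coefficient of variation by edgeR was 0.446 in YFP-negative mesoderm and 0.305 in endoderm. The script was tested on simulated data. Same-numbered libraries of different types share a date in the deposited names, whose meaning is not stated. Their deviations from the group means correlated at 0.0276, 0.0206 and 0.0167 over genes for replicates 1, 2 and 3, so the replicate block is given where it changes a call.

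Named genes were the 12 largest changes in each direction with at least 10 CPM in the higher group, the key genes of 33 lists, up to 4 further called genes of each list and direction, and label genes; some of these are not reported here. Acta2, Axin2, Cfap52, Ezr, Il17rd, Jag1, Pbx3, Plekha7, Rfx3, Robo1, Slc13a4, Tbx5 and Tjp1, outside this rule, were added after their values were seen, as were genes named for a motif or a marker list. The members, the lists and the motifs were chosen with earlier results of these data known, and list counts and medians are descriptions without a test. The median of a list covers the genes tested only. Genes at 0 counts in 1 group get a fold bound against 3 counts per library, and genes with 1 to 3 counts a ratio of summed levels with its exact 95% interval. Promoter windows came from RefSeq for GRCm38.p6, with the 250 bases before each start searched on both strands, and gene positions from GENCODE vM21. The alternatives were RLE scaling, other filters, the replicate block, all 12 libraries, a fold threshold, thinning, DESeq2 1.42.0, limma 3.58.1 (voom with quality weights) and leaving out each library.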

Additional observations from a re-analysis of the deposited data

How the results depend on the processing

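The count of 1360 called genes (468 higher and 892 lower in YFP-negative mesoderm) changed most with the libraries and the test. With the replicate block it was 839 (327 and 512), a fit that leaves 2 residual degrees of freedom against 4. With all 12 libraries it was 185 (100 and 85), with 1462 genes at an unadjusted p under 0.05, and with DESeq2 it was 2526 (920 and 1606), which include 1355 of the 1360. When genes also had to lie 1 or more log2 units from 0, 299 genes were higher. Leaving out 1 library gave 500 to 1285 calls, 195 to 422 higher and 305 to 867 lower, and the low values came without an endoderm library (500, 602 and 527 calls without replicates 1, 2 and 3). The causes were not tested. RLE scaling, both other filters, thinning and limma voom gave 1134 to 1404 calls. Of the calls 54.1% were higher with all 12 libraries, 38.98% with the block and 40.1% with a mean of at least 5 CPM. The median log2 fold change of all genes was -0.15 without a filter and -0.14 with DESeq2. None of the 1360 called genes changed direction under any alternative that could fit it. The log2 fold changes of genes named above that were not called changed sign for Ccn1 (-0.082, and -0.50 to 0.35 without 1 library), Ccn2 (0.02, and -0.018 with the replicate block and -0.014 with limma voom with quality weights and -0.23 to 0.21 without 1 library), Col4a2 (0.011, and -0.0058 with the replicate block and -0.19 to 0.21 without 1 library), H19 (0.11, and -0.033 to 0.33 without 1 library), Slc2a1 (-0.053, and -0.16 to 0.12 without 1 library) and Tdgf1 (0.098, and -0.0046 to 0.21 without 1 library). At these depths a gene under about 0.527 CPM in a library cannot be told from absence.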

Other observations

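Marker lists for cells that neither label names gave the following sums. Primordial germ cell markers summed to 12.5, 19.8 and 27.9 CPM in YFP-negative replicates 1, 2 and 3 and to 193, 194 and 197 CPM in endoderm. Prdm1, which endoderm also uses, makes up most of the endoderm sum. Without it the sums were 12.1, 18.02 and 26.4 CPM and 9.14, 17.9 and 8.01 CPM, and neither of the other 2 markers tested was called. Neural and surface ectoderm markers summed to 147, 87.5 and 140.1 CPM and 473, 416 and 501 CPM. Otx2, which anterior epiblast and endoderm also use, makes up most of both sums, at a mean of 119 CPM in YFP-negative mesoderm and 375 CPM in endoderm. Trophoblast markers, a list that holds Hand1, summed to 390.0, 376 and 387 CPM and 188, 97.01 and 234 CPM. Without Hand1, which cardiac mesoderm also uses, the order turned, at 17.2, 58.3 and 35.3 CPM and 176, 93.2 and 195 CPM. Of 8 trophoblast markers tested, 3 (Elf5, Krt7 and Rhox5) were lower in YFP-negative mesoderm and Hand1 alone was higher. Paraxial mesoderm markers summed to 108, 123 and 139.6 CPM and 52.3, 54.9 and 34.2 CPM, while of 6 tested 0 were called higher and 2, Tcf15 and Hes7, lower. Leaving out 1 library ended the calls of Elf5 (adjusted p = 0.170 without endoderm replicate 3), Tcf15 (adjusted p = 0.124 without endoderm replicate 2) and Hes7 (adjusted p = 0.0545 without endoderm replicate 3), and the replicate block that of Tcf15 (adjusted p = 0.0995 with the block). Parietal endoderm markers overlapped between the types, at 884, 782 and 732 CPM and 948, 731 and 840.1 CPM.

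The mesoderm libraries varied more among themselves than the endoderm libraries did. In YFP-negative mesoderm 330 genes reached 100 counts in some replicate while a second replicate had 3 or fewer, and in endoderm 51 genes did so. Tbx5, with 0, 35 and 207 counts in YFP-negative replicates 1, 2 and 3, and Shh, with 70, 2 and 2 counts in endoderm replicates 1, 2 and 3, are examples that were chosen after their values were seen.

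Retinoic acid genes were called in both directions, 3 (1 without endoderm replicate 1) higher and 2 (1 without endoderm replicate 1, 2 or 3, 4 without mesoderm replicate 2 and 5 with DESeq2) lower of 19 tested. Crabp1, a cytosolic binder of retinoic acid, stood at 41.1, 41.4 and 34.7 CPM in YFP-negative mesoderm and 4.65, 2.98 and 1.13 CPM in endoderm (log2 fold change 3.74 ± 0.62 (SE), adjusted p = 0.00697 by edgeR). Of 44 lipid metabolism genes tested 5 (2 without endoderm replicate 1, 3 without endoderm replicate 2 or 3, without mesoderm replicate 1 or with limma voom and 8 with DESeq2) were lower and 0 higher. In either direction 11.4% of this list was called, near the 10.1% of all genes tested. Acsl4, which loads arachidonic acid onto coenzyme A, stood at 66.05, 45.5 and 91.8 CPM and 192, 198 and 232 CPM (log2 fold change -1.61 ± 0.25 (SE), adjusted p = 0.00493 by edgeR). Of 16 apelin, chemokine and lysophospholipid genes tested 2 (1 without endoderm replicate 1 or without mesoderm replicate 3) were higher and 2 (1 without endoderm replicate 1, 2 or 3) lower. F2r, a thrombin receptor, stood at 249, 267 and 221 CPM and 112, 115 and 131 CPM (log2 fold change 1.04 ± 0.14 (SE), adjusted p = 0.00240 by edgeR).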
